A study of Mus musculus with 6 samples.

Results

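The genes described here are markers of Kupffer cells, the resident macrophages of the liver, and of other leukocytes, read from bulk liver RNA. They are a chosen list of 33 genes: 12 of resident macrophages, 8 shared by myeloid or other leukocytes, 3 of monocytes and their recruitment, 3 of neutrophils and 7 of lymphocytes. Each gene was represented by the probe set with the highest mean over the arrays among those annotated with that symbol alone. Of the 33 genes, 32 had such a probe set, out of 18193 genes on the array. Ly6c1 had none and has no value here. The mean signal of 26 members passed the filter on dim probe sets, which left 13027 genes in the tests. The other 6 (Itgam, Ccl2, Cd3e, Cd3g, Cd4 and Nkg7) have no test here.

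The livers came from male mice aged 9 weeks, 1 mouse per array, and all 6 mice had received only the vehicle of 10% DMSO, 10% Cremophor-EL and 80% PBS. The 3 conditional knockouts, numbered 3, 4 and 5, carried Alb-Cre with 1 floxed and 1 null copy of Keap1 (flox/-). The 3 genetic controls, numbered 1, 2 and 3, carried Alb-Cre with 1 floxed and 1 wild-type copy (flox/+). The albumin promoter drives Cre in hepatocytes. Leukocytes, where that promoter is silent, would keep a floxed allele beside a null allele in the knockouts and beside a wild-type allele in the controls. Hepatocytes in which Cre has acted would keep no intact copy in the knockouts and 1 wild-type copy in the controls. The comparison therefore asks how leukocyte transcripts of the liver differ when the neighbouring hepatocytes lose Keap1 fully rather than in 1 copy. In the knockouts 1 allele is also missing in every cell.

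Kupffer cells sit in the sinusoids, where they take up particles, dying cells and haemoglobin from the blood. They depend on the receptor CSF1R and carry scavenger, complement and lectin receptors, some of which are rare on other cells of the organ. Monocytes enter an injured liver through the chemokine CCL2 and its receptor CCR2 and can replace lost Kupffer cells. Neutrophils, B cells and T cells pass through the sinusoids and enter the tissue in inflammation. KEAP1 marks the transcription factor NRF2 for degradation, and NRF2 in macrophages is known to restrain inflammatory genes.

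Keap1 itself had signals of 326, 151 and 214 in knockouts 3, 4 and 5, against 786, 843 and 699.8 in controls 1, 2 and 3, and it fell (log2 difference -1.74, limma adjusted p = 0.0118). Without any 1 control another Keap1 probe set had the highest mean, and its log2 differences of -0.78, -0.66 and -0.69 did not pass. The position of the probe set relative to the floxed exons is not known here, so the check is of the transcript as this probe set reads it. The tissue was checked on its markers, and the signal of albumin (Alb) was 25933 to 28702 in the knockouts and 22569 to 25027 in the controls. The 3′ over 5′ signal of actin, which rises in degraded RNA, was between 1.58 and 1.85 in the knockouts and between 1.54 and 1.9 in the controls. In liver RNA, fewer cells of a type and less RNA per cell cannot be told apart.

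Of the 26 markers tested, 0 rose and 0 fell in the knockouts, where 1.04% of all genes tested rose and 0.944% fell, or 1.98% in all (limma, Benjamini-Hochberg over all genes, threshold 0.05). That was 135 genes higher and 123 lower, a split that became 137 and 74 after median centring of the arrays and 85 and 275 after scaling on the hybridisation controls. At an unadjusted p under 0.05 there were 4, Marco, Tyrobp, Ccr2 and Cd5l, where 15.2% of all genes had such a p. The groups did not overlap in 4 tested markers, higher in Marco, Tyrobp and Cd79b and lower in Ccr2, where the groups of 21.3% of all genes did not overlap (10.3% higher and 10.9% lower). The share of markers with such a p was near that of all genes, and the share without overlap was not above it. The median log2 difference, knockouts minus controls, was 0.13 over the 26 markers and -0.017 over all genes. Of the 26 markers 15 (57.7%) lay above the controls, where 47.2% of all genes did. For 21 of the 26 (80.8%) the 95% interval of the difference lay within 2-fold in either direction, where 84.5% of all genes had such an interval. The 5 with wider intervals were Marco, Cd163, Ccr2, S100a8 and S100a9.

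**Figure D1:**
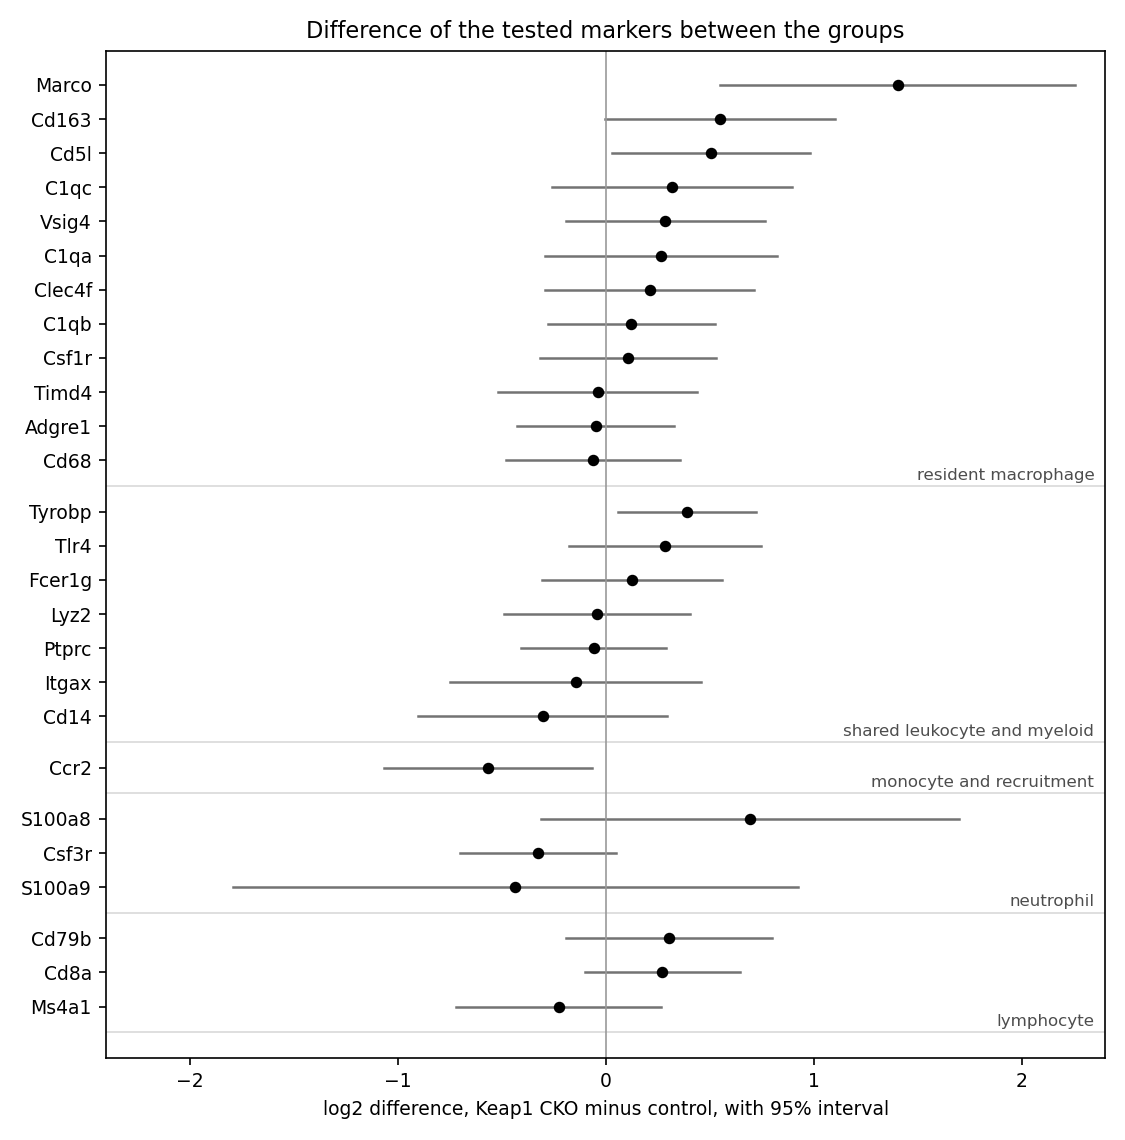
Log2 difference of signal, Keap1 CKO minus control, for the 26 tested markers (rows, by group of cells), with points for the difference and bars for its 95% interval from limma (3 mice per group). Marco has the largest difference, 1.40, and the intervals of Marco, Cd5l, Tyrobp and Ccr2 leave out 0.

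Among the resident macrophage genes the largest difference was that of Marco, a scavenger receptor with a collagen-like stalk that binds bacteria and particles. Its signals were 769.6, 492 and 387 in knockouts 3, 4 and 5, against 298, 98.6 and 225 in controls 1, 2 and 3. Every knockout lay above every control, and control 2 was far below the other controls. The means were 549.6 ± 198 (SD) over the 3 knockouts and 207 ± 101 (SD) over the 3 controls, 2.65-fold higher on the log2(signal + 16) scale, a log2 difference of 1.40 (95% interval 0.55 to 2.26, limma adjusted p = 0.111). The difference did not pass the threshold, and 568 of the 13027 genes had a lower p. A second Marco probe set, which can match several transcripts, gave 504, 404 and 305 in the knockouts and 235, 58.7 and 232 in the controls, a log2 difference of 1.31 (limma adjusted p = 0.203 over all probe sets). Both probe sets thus separated the groups in the same direction, with control 2 lowest on each. Without control 2 the log2 difference of Marco was 0.98, and over all 18 other settings it lay between 0.98 and 1.71, with adjusted p from 0.0807 to 0.329.

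Cd163 and Cd5l followed Marco in size. Cd163, the receptor that clears haemoglobin bound to haptoglobin, had signals of 709.8, 498 and 749.5 in knockouts 3, 4 and 5, against 622, 325 and 402 in controls 1, 2 and 3. Control 1 lay above knockout 4, so the groups overlapped, and the log2 difference was 0.55 (95% interval -0.0050 to 1.11, limma adjusted p = 0.335). Cd5l encodes a protein secreted by macrophages that takes part in lipid handling and in the removal of debris. Its signals were 4904, 3710 and 3487 in the knockouts and 3825, 2138 and 2695 in the controls, a log2 difference of 0.51 (95% interval 0.030 to 0.98, limma adjusted p = 0.293). Here too control 1 stood among the knockouts and control 2 was the lowest array. Without control 2 the log2 differences were 0.35 for Cd163 and 0.31 for Cd5l.

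**Figure D2:**
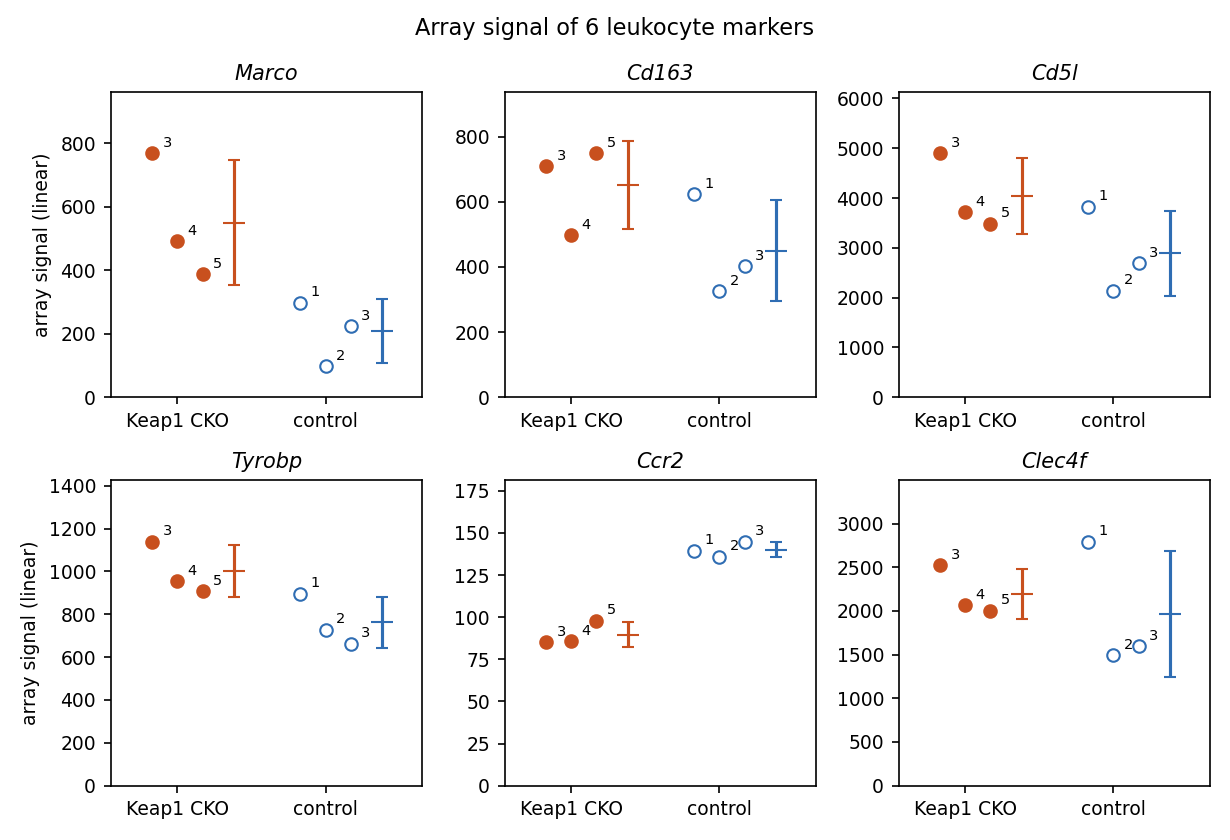
Linear array signal (vertical axes, from 0) of Marco, Cd163, Cd5l, Tyrobp, Ccr2 and Clec4f in the 3 Keap1 CKO (filled) and 3 control livers (open). Points are mice with their numbers, and bars are the mean ± SD. The groups separate for Marco, Tyrobp and Ccr2 and overlap for Cd163, Cd5l and Clec4f.

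Clec4f, Timd4, Vsig4, Csf1r, Adgre1 and Cd68 gave no separation. Clec4f, a lectin that in the mouse is restricted to Kupffer cells, had signals of 2527, 2064 and 2002 in knockouts 3, 4 and 5, against 2794, 1498 and 1596 in controls 1, 2 and 3, with control 1 the highest of the 6 arrays (log2 difference 0.21, 95% interval -0.29 to 0.72, limma adjusted p = 0.708). Timd4, a phosphatidylserine receptor of long-lived resident macrophages, ranged over 232 to 278 in the knockouts and 210.2 to 355 in the controls (log2 difference -0.038, 95% interval -0.52 to 0.44, limma adjusted p = 0.959). For both genes the knockouts lay inside the range of the controls. Vsig4, a complement receptor that captures opsonised bacteria, had 1399 to 2018 in the knockouts and 1064 to 1832 in the controls, and its log2 difference was 0.29 (95% interval -0.19 to 0.77, limma adjusted p = 0.566). Csf1r, the receptor of the growth factors CSF1 and IL34, had 3388 to 4132 and 2814 to 4680 in the same order (log2 difference 0.11, 95% interval -0.32 to 0.53, limma adjusted p = 0.845), and its other 2 probe sets differed by 0.35 and 0.14. Adgre1, which encodes the macrophage antigen F4/80, had 896 to 1001 in the knockouts and 768 to 1225 in the controls, and Cd68, a lysosomal glycoprotein, had 268 to 322 and 252 to 385 in the same order. Their log2 differences were -0.048 (95% interval -0.42 to 0.33, limma adjusted p = 0.928) and -0.062 (95% interval -0.48 to 0.36, limma adjusted p = 0.915). For both genes the knockouts lay inside the range of the controls.

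C1qa, C1qb and C1qc encode the 3 chains of C1q, which starts the classical complement pathway and is made mainly by macrophages. C1qa had signals of 1726, 1348 and 1334 in the knockouts and 1778, 823 and 1209 in the controls. For C1qb they were 1796, 1373 and 1666 in the knockouts and 1647, 1119 and 1718 in the controls, and for C1qc 1881, 1464 and 1099 in the knockouts and 1619, 835 and 1141 in the controls. Control 2 was lowest for each chain, while the highest array was knockout 3 for C1qb and C1qc and control 1 for C1qa. The log2 differences were 0.27 (95% interval -0.29 to 0.83, limma adjusted p = 0.662) for C1qa, 0.12 (95% interval -0.28 to 0.52, limma adjusted p = 0.800) for C1qb and 0.32 (95% interval -0.26 to 0.90, limma adjusted p = 0.597) for C1qc, and the 2 further C1qb probe sets differed by 0.22 and 0.18. Without control 2 the differences of C1qa and C1qb were -0.0071 and -0.070.

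The promoters of Marco, the marker with the largest difference, and of C1qb and C1qc, whose chains join in 1 protein and which shared their lowest and highest arrays, are shown for comparison (RefSeq, GRCm38.p6, minus strand of the chromosome for each, 5′ to 3′, 250 bases before to 50 after the start). They lie at chr1:120504975-120505274, chr4:136886151-136886450 and chr4:136892865-136893164. Capitals mark the PU box GAGGAA, bound by PU.1, the factor that specifies macrophages, or its reverse complement TTCCTC, and in C1qb also a match to the core TGACNNNGC of the antioxidant response element (reverse complement GCNNNGTCA), through which NRF2 acts.
Marco: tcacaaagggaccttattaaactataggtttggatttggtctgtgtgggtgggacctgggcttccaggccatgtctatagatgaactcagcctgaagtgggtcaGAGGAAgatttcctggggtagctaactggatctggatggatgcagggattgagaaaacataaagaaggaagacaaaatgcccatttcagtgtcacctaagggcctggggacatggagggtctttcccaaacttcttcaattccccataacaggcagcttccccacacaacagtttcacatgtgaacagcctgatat
C1qb: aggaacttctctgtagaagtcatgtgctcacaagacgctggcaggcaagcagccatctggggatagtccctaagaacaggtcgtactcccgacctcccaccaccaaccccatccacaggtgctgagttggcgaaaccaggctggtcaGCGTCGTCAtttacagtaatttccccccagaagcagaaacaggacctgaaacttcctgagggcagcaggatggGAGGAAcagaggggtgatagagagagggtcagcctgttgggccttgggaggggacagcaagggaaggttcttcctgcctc
C1qc: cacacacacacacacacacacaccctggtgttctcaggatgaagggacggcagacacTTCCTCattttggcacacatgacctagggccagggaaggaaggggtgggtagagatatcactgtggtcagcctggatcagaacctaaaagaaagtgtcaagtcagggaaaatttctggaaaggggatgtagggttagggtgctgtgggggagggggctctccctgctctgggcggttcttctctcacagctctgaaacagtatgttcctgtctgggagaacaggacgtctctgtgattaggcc
A PU box was found in the windows of Marco, C1qb and C1qc, on the other strand in C1qc, and the antioxidant core in that of C1qb, on the other strand, with no overlap between the motifs. Sequences were at hand for 23 of the 33 markers. They gave 25 windows, of which 14 held a PU box and 5 (of C1qb, Clec4f, Itgax, Lyz2 and Ptprc) the antioxidant core, while 28.3% and 12.4% of all 32851 promoter windows of that length held them. These are matches of letters, and binding was not measured here.

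By array rather than by group, the resident macrophage genes varied together. Control 2 was the lowest of the 6 arrays for 11 of the 12 genes, the exception being Timd4, whereas it was lowest for 16.7% of all genes. Knockout 3 was highest for 5 of the 12 and control 1 for another 5, where these arrays were highest for 13.7% and 13.3% of all genes. The mean log2 deviation from each gene's own 6-array mean was 0.38, 0.041 and 0.033 in knockouts 3, 4 and 5, against 0.27, -0.54 and -0.18 in controls 1, 2 and 3. The spread among the controls was thus wider than the difference of 0.30 between the group means. Of the 12 genes, 9 lay above the controls, where 47.2% of all genes did, with a median log2 difference of 0.24. Without control 2 the count was 6 and the median 0.021. Without control 1 they were 11 and 0.51, and without knockout 3 the median was 0.12. Scaling on the hybridisation controls, which moved the median of all genes to -0.18, turned the signs of Csf1r and C1qb and gave a median of 0.076 for the 12 genes. Median centring, which moved the median of all genes to 0.078, turned the signs of Cd68, Adgre1 and Timd4 and gave a median of 0.33.

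Control 2 also stood apart in some markers of other cells. The summed signal of the 5 cholangiocyte markers with a probe set was 463, 528 and 258 in knockouts 3, 4 and 5, against 313, 1318 and 764 in controls 1, 2 and 3. Of the 3 that were tested, Krt7 was highest in control 2, and Epcam and Sox9 were highest in control 3. Krt19, a keratin of bile ducts that was under the filter, had 11.3 to 88.5 in the knockouts, against 8.3, 502 and 17.4 in the controls. Ltf, which encodes lactoferrin of neutrophil granules and of secretory epithelia, had 105 to 156 in the knockouts, against 124, 1377 and 146 in the controls. Krt19 and Ltf were highest in control 2 by a wide margin. The part of these differences between arrays in the macrophage values was not tested; the macrophage counts and medians without that array are those given above.

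**Figure D3:**
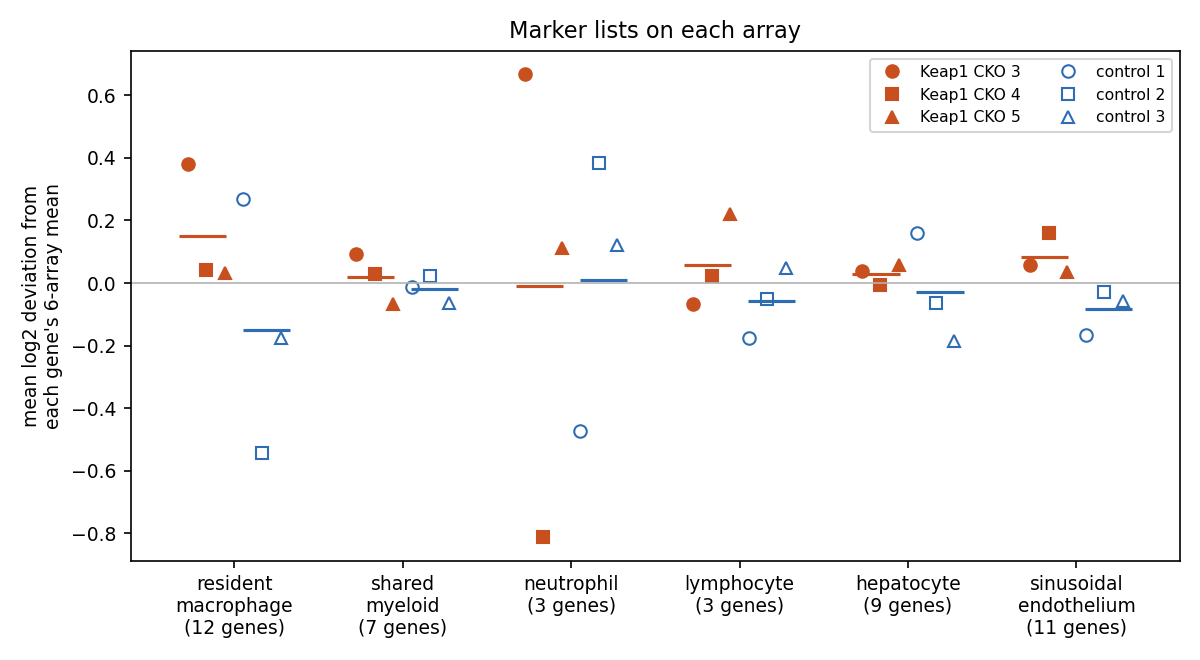
Mean over the tested genes of a list of the log2 deviation from each gene's own mean over the 6 arrays (vertical axis), for 4 leukocyte lists and, for comparison, hepatocyte and sinusoidal endothelial markers. Symbols are arrays, filled for Keap1 CKO and open for control, and short lines are group means. The resident macrophage genes reach 0.38 in knockout 3 and -0.54 in control 2, and the 3 neutrophil genes run from -0.81 in knockout 4 to 0.67 in knockout 3.

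The genes shared by myeloid cells or all leukocytes centred near the controls. Of 7 tested, 3 lay above and 4 below the controls, with a median log2 difference of -0.042. Tyrobp, the adaptor DAP12 through which activating receptors of macrophages and natural killer cells signal, had signals of 1139, 956 and 907 in knockouts 3, 4 and 5, against 896, 728 and 663 in controls 1, 2 and 3. The groups did not overlap, although knockout 5 and control 1 lay close together, and the log2 difference was 0.39 (95% interval 0.060 to 0.72, limma adjusted p = 0.245). Fcer1g, the signalling chain shared by Fc receptors, gave 517, 467 and 365 in the knockouts and 480.1, 322 and 432 in the controls, an overlap (log2 difference 0.13, 95% interval -0.31 to 0.56, limma adjusted p = 0.810). Cd14, a co-receptor for bacterial lipopolysaccharide, had 358, 265 and 400.5 in the knockouts and 303, 629 and 384 in the controls. Its highest value was that of control 2, and its log2 difference was -0.30 (95% interval -0.90 to 0.30, limma adjusted p = 0.639). Tlr4, the lipopolysaccharide receptor itself, ranged over 157 to 198 in the knockouts and 128 to 159 in the controls, and differed by 0.29 (95% interval -0.18 to 0.75, limma adjusted p = 0.553).

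Ptprc, which encodes the pan-leukocyte antigen CD45, had signals of 572, 479 and 424 in knockouts 3, 4 and 5, against 546, 539 and 448 in controls 1, 2 and 3. The groups overlapped almost fully, and the log2 difference of -0.058 (95% interval -0.40 to 0.29, limma adjusted p = 0.903) had one of the narrowest intervals of the markers. Lyz2, the lysozyme of myeloid cells, had 1004 to 1312 in the knockouts and 886 to 1553 in the controls (log2 difference -0.042, 95% interval -0.49 to 0.41, limma adjusted p = 0.950). Itgax, the integrin CD11c of dendritic cells and some macrophages, had 116 to 159 and 119 to 221 in the same order, with control 2 highest (log2 difference -0.14, 95% interval -0.75 to 0.46, limma adjusted p = 0.854). Itgam, the integrin CD11b, was under the filter, at 58.6, 47.7 and 65.2 in the knockouts and 70, 89.9 and 74.8 in the controls. All 3 knockouts lay below the controls for Itgam, a log2 difference of -0.37 that was not tested because of the filter.

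Ccr2, the chemokine receptor of inflammatory monocytes, was the only tested gene of the monocyte group. It had signals of 85.1, 86 and 98 in knockouts 3, 4 and 5, against 139.5, 136 and 145 in controls 1, 2 and 3. The knockouts lay below the controls without overlap and both groups were tight, but the signals were close to the filter of 79 that dim probe sets had to exceed on average. The log2 difference was -0.56 (95% interval -1.06 to -0.065, limma adjusted p = 0.264). Of its 2 other probe sets above the filter, 1 gave 96, 73.6 and 98.1 in the knockouts and 124, 148 and 114 in the controls, a log2 difference of -0.46, and the other differed by 0.16, so those above the filter did not share a direction. A further Ccr2 probe set, under the filter, differed by -0.49. Ccl2, the ligand of CCR2, was under the filter, with 65.2, 70.9 and 170.5 in the knockouts and 33.6, 82.7 and 79.9 in the controls. Knockout 5 alone was well above the rest, and the groups overlapped.

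Among the neutrophil genes, S100a8 and S100a9 varied more within the groups than between them. They encode the 2 chains of calprotectin, an abundant cytosolic protein of neutrophils. S100a8 had signals of 306, 84.2 and 148 in knockouts 3, 4 and 5, against 54.7, 125 and 109.5 in controls 1, 2 and 3, and S100a9 had 201, 24.6 and 131 in the knockouts, against 78.3, 217 and 129.6 in the controls. Both genes were low in knockout 4 and control 1 relative to the other mice of the same group. The log2 differences had opposite signs, 0.69 (95% interval -0.31 to 1.70, limma adjusted p = 0.507) for S100a8 and -0.43 (95% interval -1.79 to 0.92, limma adjusted p = 0.790) for S100a9. Without knockout 4 that of S100a9 was 0.28. Csf3r, the receptor of granulocyte colony-stimulating factor, had 316, 246 and 288 in the knockouts and 308, 376 and 391 in the controls, an overlap by 1 array of each group, with a log2 difference of -0.32 (95% interval -0.70 to 0.051, limma adjusted p = 0.401). The median of the 3 genes was -0.32, which became 0.28 without knockout 4 and -0.10 without control 2.

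Lymphocyte markers were mostly dim. Only 3 of 7 passed the filter, against 12 of 12 resident macrophage genes. Cd79b, a signalling chain of the B cell receptor, had signals of 132, 143 and 148 in knockouts 3, 4 and 5, against 99.8, 130.1 and 105 in controls 1, 2 and 3. The groups were separated narrowly, by knockout 3 and control 2, and the log2 difference was 0.30 (95% interval -0.19 to 0.80, limma adjusted p = 0.556). Ms4a1, which encodes CD20 of B cells, had 167, 148 and 226 in the knockouts and 214, 179 and 244 in the controls and differed by -0.23 (95% interval -0.72 to 0.27, limma adjusted p = 0.677). The 2 B cell genes therefore had opposite signs, and neither passed. Cd8a, the co-receptor of cytotoxic T cells, had 406, 512 and 508 in the knockouts and 327, 402 and 446 in the controls on its brightest probe set, a log2 difference of 0.27 (95% interval -0.098 to 0.64, limma adjusted p = 0.473). That probe set can match several transcripts. The only other Cd8a probe set above the filter had 114, 70 and 129 in the knockouts and 158, 176 and 138 in the controls, a log2 difference of -0.56 in the other direction. Those under the filter differed by -0.82, -0.057 and 0.40. The median of 0.27 over the 3 tested lymphocyte genes is the value of the brightest Cd8a probe set.

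The remaining 4 lymphocyte genes were under the filter and were not tested. Cd3e, a chain of the T cell receptor complex, had signals of 158, 70.5 and 80.6 in knockouts 3, 4 and 5, against 60.6, 49.1 and 56 in controls 1, 2 and 3, without overlap but with knockout 3 far from the others. Its partner chain Cd3g had 35, 64 and 66.4 in the knockouts and 90.5, 54.7 and 91.5 in the controls. For Cd3g the overlap was broad and knockout 3 was the lowest array, the opposite of Cd3e. Cd4, the co-receptor of helper T cells, had 28.2 to 34.7 in the knockouts and 18.7 to 45.7 in the controls. Nkg7, a granule membrane protein of natural killer and cytotoxic T cells, had 7.1 to 60.1 and 28.6 to 52.5 in the same order. Several of the Cd4 and Nkg7 values lay near the offset of 16 added before the logarithm, and their log2 differences were 0.088 and -0.59.

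**Figure D4:**
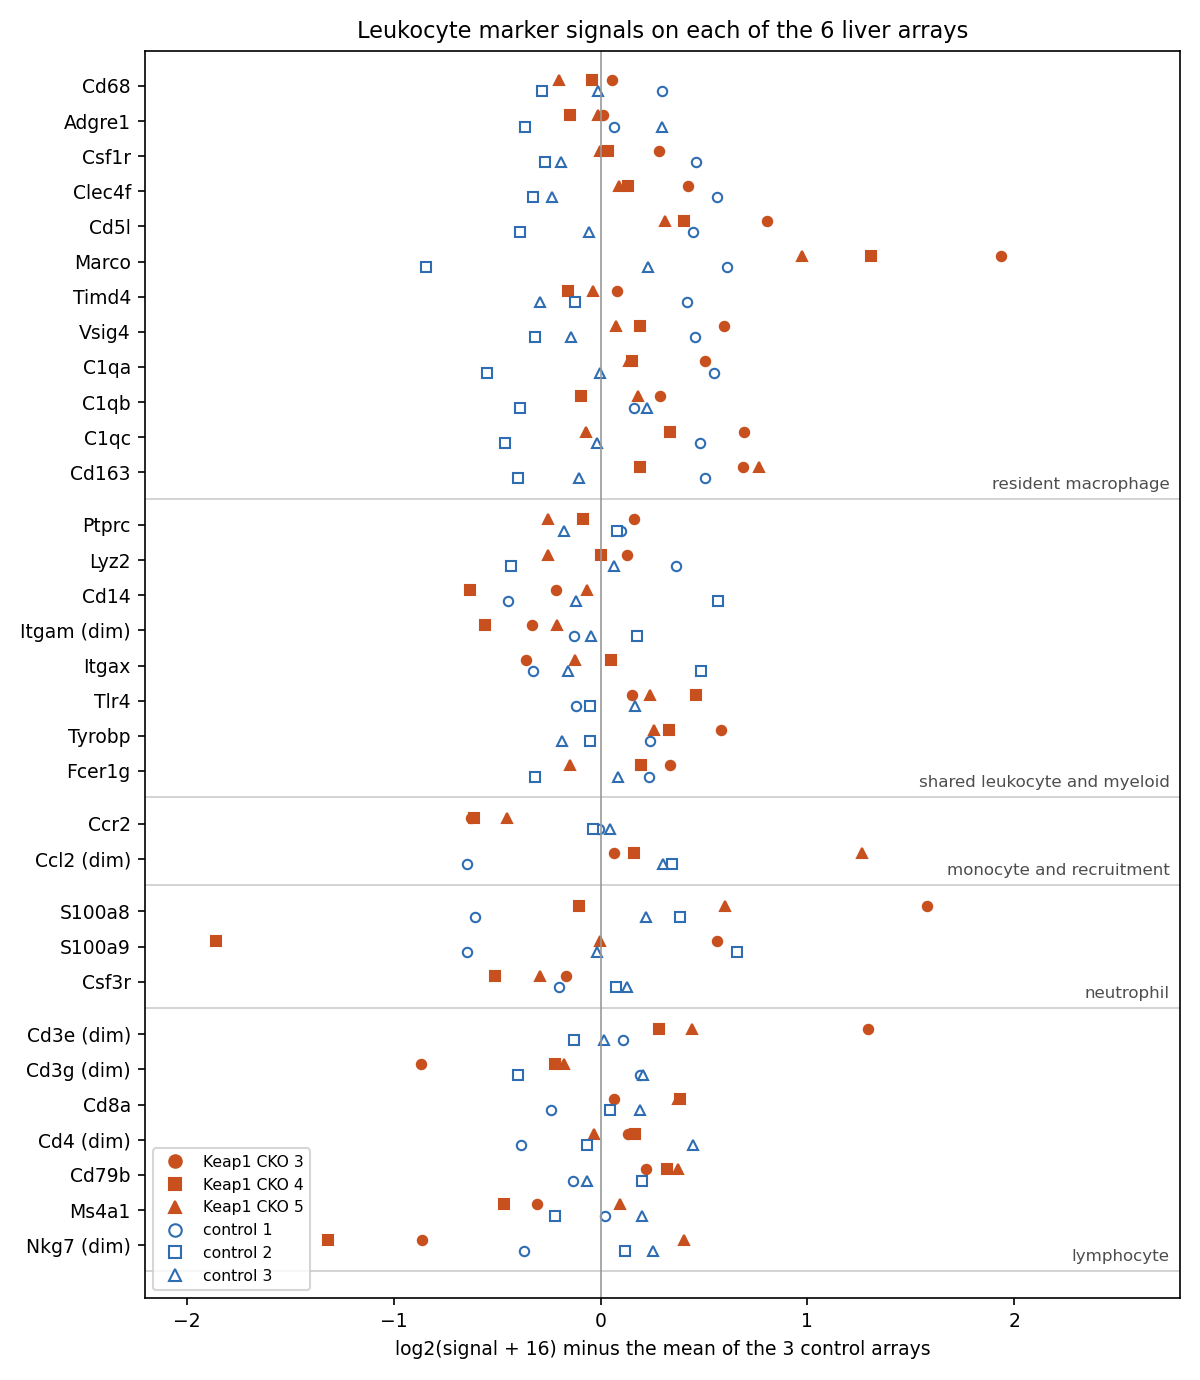
Log2(signal + 16) of the 32 markers with a probe set (rows) on each array, relative to the mean of the 3 controls (horizontal axis). Filled symbols are Keap1 CKO and open ones control livers, and dim marks the 6 genes under the filter. In the resident macrophage rows the open square of control 2 lies at the left end in all but Timd4, and Marco is the row in which the groups stand farthest apart.

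Set side by side, the medians of the log2 differences were 0.24 for the 12 resident macrophage genes, -0.042 for the 7 shared genes, -0.32 for the 3 neutrophil genes and 0.27 for the 3 lymphocyte genes. By array, the neutrophil genes deviated by 0.67, -0.81 and 0.11 in knockouts 3, 4 and 5, against -0.47, 0.38 and 0.12 in controls 1, 2 and 3. The lymphocyte genes deviated by -0.066, 0.021 and 0.22 in the knockouts, against -0.18, -0.050 and 0.049 in the controls. For the neutrophil genes knockout 4 was lowest and knockout 3 highest, so both ends lay in 1 group, and for the lymphocyte genes the groups overlapped. The lists therefore did not share an order of the arrays, and none of the 4 marker groups in the plot of lists by array separated the knockouts from the controls. Among other lists, the mean of the further lymphocyte genes described below was lower in every knockout than in any control. The mean log2 deviation was -0.092, -0.14 and -0.16 in knockouts 3, 4 and 5, against 0.32, -0.017 and 0.095 in controls 1, 2 and 3. That mean includes Lat, which passed the filter through its controls and differed by -2.03, and the mean without Lat was not computed. Of the 14 lymphocyte genes, 8 lay below and 6 above the controls. The ligands and signalling genes of macrophage receptors lay higher, with 0.096, 0.0079 and 0.017 in the knockouts, against -0.038, -0.018 and -0.064 in the controls. The mean of the sinusoidal endothelial markers was also higher, with 0.058, 0.16 and 0.035 in knockouts 3, 4 and 5. In controls 1, 2 and 3 it was -0.17, -0.028 and -0.058. That mean includes Lyve1, which differed by 1.29. Of the 11 endothelial markers, 6 lay above and 5 below the controls, with a median of 0.080. The part of these markers in the leukocyte values was not tested.

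Further lists of leukocyte genes and of chemokines and cytokines gave 4 calls, read from whole liver and not from leukocytes alone. Of 27 further macrophage genes tested 1 rose and 1 fell (1.04% and 0.944% of all genes), with a median log2 difference of 0.066. Slc40a1, the iron exporter ferroportin, through which Kupffer cells return iron from red cells to the blood, had signals of 12129.5, 11341 and 10702 in knockouts 3, 4 and 5, against 8138, 7501 and 7893 in controls 1, 2 and 3. It rose 1.45-fold, by 0.54 (95% interval 0.33 to 0.74, limma adjusted p = 0.0236) on the log2 scale, with no overlap. Ferroportin is also made by hepatocytes. Cd33, a sialic acid-binding lectin of myeloid cells, had 17.8, 36.5 and 51.8 in the knockouts and 173, 229 and 273 in the controls and fell, by a log2 difference of -2.26 (95% interval -3.02 to -1.51, limma adjusted p = 0.0143). The knockout signals lay under the filter, which the gene passed through its controls, so the size of the difference depends on the offset, with -2.73 at an offset of 1 and -1.54 at 64. The gene was not tested with the filter at the 60th percentile or without control 2 or control 3. Of the 27 genes, 7 had an unadjusted p under 0.05, and the groups of 4 did not overlap with the knockouts higher and of 4 with the knockouts lower, where 15.2% of all genes had such a p, 10.3% lay higher without overlap and 10.9% lower.

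Of 14 further lymphocyte genes tested 0 rose and 1 fell (1.04% and 0.944% of all genes), with a median of -0.17. It was Lat, an adaptor of T cell receptor signalling, with 43.1, 25.9 and 31.2 in knockouts 3, 4 and 5, against 188, 129 and 251 in controls 1, 2 and 3 (log2 difference -2.03, 95% interval -2.75 to -1.30, limma adjusted p = 0.0178). Every control was well above every knockout, but the knockout signals lay under the filter, which the gene passed through its controls, and the log2 difference was -1.35 at an offset of 64. Of the 14 genes, 4 had an unadjusted p under 0.05, and 2 were higher and 5 lower without overlap. Over all genes 15.2% had such a p, and 10.3% were higher and 10.9% lower without overlap. Of the chemokines and cytokines 0 of 16 rose and 1 fell, Cxcl10, a chemokine induced by interferon that attracts T cells, with 206, 194 and 197 in the knockouts and 357, 423 and 314 in the controls (log2 difference -0.81, 95% interval -1.19 to -0.44, limma adjusted p = 0.0463). The knockouts were tight and lay below all controls. Of the 16 genes, 6 had an unadjusted p under 0.05 (15.2% of all genes), and 3 were higher and 4 lower without overlap (10.3% and 10.9% of all genes). The call of Lat was lost without knockout 5 (adjusted p = 0.0528), and the gene was not tested without any 1 control, with the filter at the 60th percentile or at an offset of 1. That of Cxcl10 was lost without any 1 array, without the filter, after quantile normalization, median centring or cyclic loess, and without the variance trend. That of Slc40a1 was lost without any 1 array except knockout 5, after median centring or scaling on the hybridisation controls, and without the variance trend. Over all 18 other settings the adjusted p was 0.0253 to 0.151 for Cxcl10 and 0.0130 to 0.111 for Slc40a1. The 7 further neutrophil genes (median -0.36), 5 dendritic cell genes (median -0.059) and 10 ligands and signalling genes of macrophage receptors (median 0.10) held 0 calls, with 0, 0 and 3 genes at an unadjusted p under 0.05 (15.2% of all genes) and 1, 1 and 3 without overlap (21.3% of all genes). The largest differences there were those of Ltf at -1.12 and Elane at -0.45 (adjusted p = 0.527 and 0.771), Flt3 at 0.92 and Zbtb46 at -0.40 (0.411 and 0.329), and Myd88 at -0.53 and Vcam1 at 0.48 (0.0745 and 0.104). Myd88, an adaptor of Toll-like receptors, passed the threshold when arrays were scaled on the hybridisation controls (0.0406). Ltf without control 2 differed by -0.048.

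**Figure D5:**
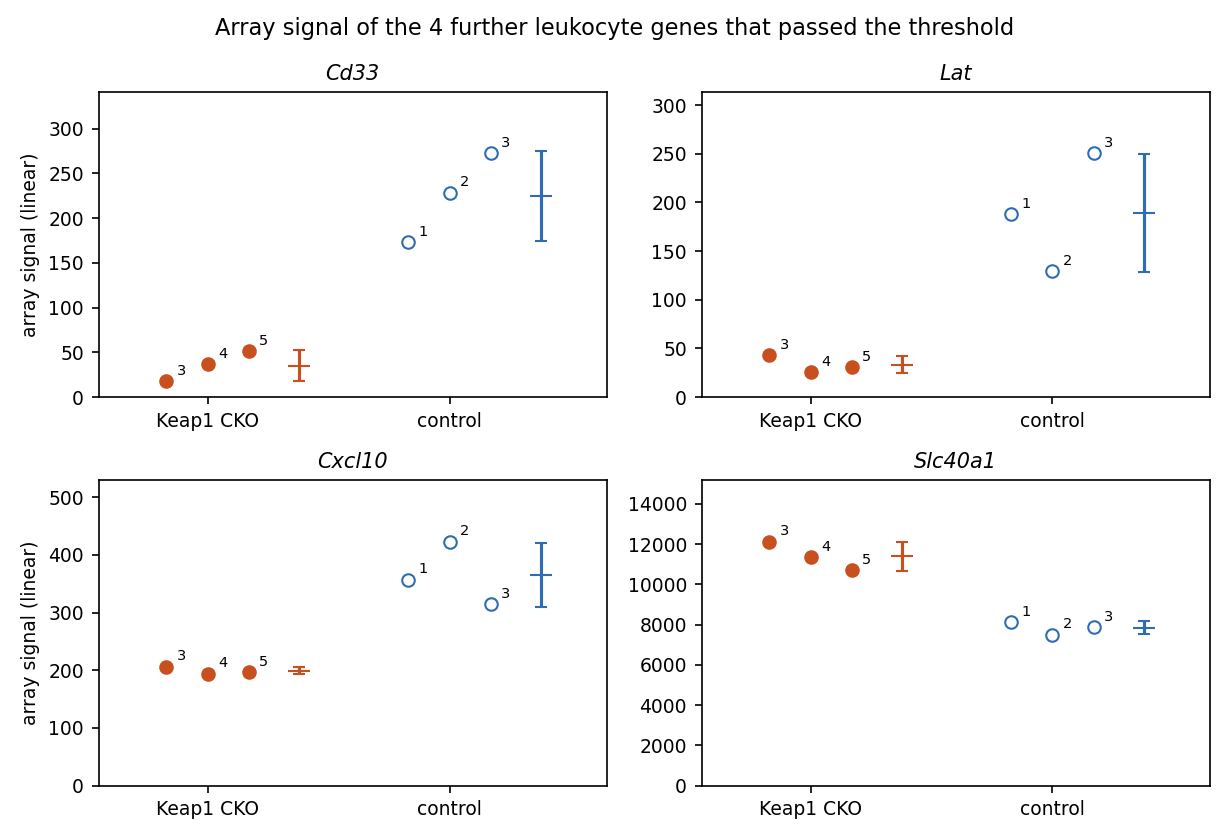
Linear array signal (vertical axes, from 0) of Cd33, Lat, Cxcl10 and Slc40a1 in the 3 Keap1 CKO (filled) and 3 control livers (open). Points are mice with their numbers, and bars are the mean ± SD. The groups do not overlap in any panel, with Slc40a1 higher and the other 3 lower in the knockouts.

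Markers of hepatocytes, sinusoidal endothelium, stellate cells and cholangiocytes held 0 calls by limma, with 1, 2, 2 and 0 genes at an unadjusted p under 0.05, of 9, 11, 9 and 3 tested, where 15.2% of all genes had such a p. In the same order, 5, 3, 2 and 0 tested markers did not overlap between the groups, where 21.3% of all genes did not. Higher in the knockouts without overlap were 5, 3, 1 and 0 markers, where 10.3% of all genes were. Over the 9 hepatocyte markers the summed signal was 236952 to 256184 in the knockouts and 208115 to 248304 in the controls, with a median log2 difference of 0.16. Its largest differences were those of Pck1 at -0.67 and Tat at 0.23 (limma adjusted p = 0.507 and 0.562). The 11 markers of sinusoidal endothelium, the cells that Kupffer cells lie on, summed to 9479 to 10282 in the knockouts and 8911 to 9171 in the controls (median 0.080). Among them the hyaluronan receptor Lyve1 had 739, 705 and 1394 in knockouts 3, 4 and 5, against 238, 332 and 582 in controls 1, 2 and 3, without overlap but not called (log2 difference 1.29, 95% interval 0.51 to 2.06, limma adjusted p = 0.108, or 0.0439 after median centring), and the scavenger receptor Stab1 differed by 0.38 (adjusted p = 0.273). In the stellate cell list (median 0.023) Col3a1 and Rgs5 differed most, by -0.63 and 0.37 (adjusted p = 0.397 and 0.160). The 3 tested cholangiocyte markers had a median of -0.44, with Epcam at -1.04 and Krt7 at -0.44 (adjusted p = 0.541 and 0.654).

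Blood left in the tissue brings its own leukocytes, so red cell and platelet genes were read as well. The 2 red cell and 4 platelet genes tested held 0 calls by limma, where 1.98% of all genes were called. At an unadjusted p under 0.05 there were 1 and 0 of them, where 15.2% of all genes had such a p. With so few genes tested, 0 calls says little about blood content. The 4 red cell markers, 2 of them under the filter, summed to 1590.4, 770.4 and 2700.4 in knockouts 3, 4 and 5. In controls 1, 2 and 3 the sums were 2410.4, 2084 and 1997. The sum was lowest in knockout 4, which was also the lowest array for 2 of the 3 neutrophil genes. Slc4a1, the anion exchanger of red cells, differed by 1.53 and Alas2, their heme synthesis enzyme, by -0.72 (limma adjusted p = 0.300 and 0.376). Alas2 made up most of the sum, with 641.5 in knockout 4, while Slc4a1 was lowest in control 2, at 21.6. The 5 platelet markers summed to 1047 to 1374 in the knockouts and 933 to 1338 in the controls, and the largest differences were those of Ppbp at -0.24 and Itga2b at 0.21 (adjusted p = 0.830 and 0.700). The part of blood content in the neutrophil values was not tested.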

How the data were processed

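The authors deposited linear array intensity, 1 value per probe set and array, for 45101 probe sets. Which software summarised the probes is not stated in the labels. After trimming 2% at either end each array averaged 500.0, so the arrays share a scaling target. Per the labels' protocols, RNA was primed with oligo(dT) and labelled as biotin cRNA. The platform's annotation gives 1 symbol to 34945 probe sets, several to 932 and none to 9160, and genes were named from the first kind alone.

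From these values log2(signal + 16) was computed. Fold differences are on that scale and understate changes of dim genes. Probe sets with a mean at or above the 40th percentile were kept, and each gene took its probe set with the highest mean. The knockout and control groups were set against each other in limma 3.58.1 under R 4.3.3, using eBayes with the trend option. The tests were two-sided, and p-values were adjusted by Benjamini-Hochberg over 13027 genes, with a threshold of 0.05. The steps were tested on simulated data, and filters, offsets, scalings, variance models, probe set choices and leaving out each array were tried as alternatives. The labels do not say whether the mice were littermates. Precision is limited by the number of arrays. An exact permutation test of 1 value could not go below p = 0.1.

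All markers are given. Signals on every array are given for those whose groups do not overlap and for the 2 largest differences of each group of cells, and the named genes of other lists are those called or else the 2 largest differences. Krt19 and Alb, and the other markers with a signal on every array, were picked after their values were seen. The markers and lists were chosen with earlier results of these data known.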

Additional observations from a re-analysis of the deposited data

How the results depend on the processing

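The count of called markers was 0 under each of the 18 other settings, including 0 of 32 without the filter on dim probe sets. In these settings 1 to 10 markers had an unadjusted p under 0.05 by limma (10 without control 1). The share of all genes with such a p was computed for the main fit alone (15.2%). These marker counts therefore have no share of all genes to be set against. Marco, Cd163, Cd5l, Tyrobp and Ccr2 kept their sign in each setting that tested them. The number of genes called was 77 without the variance trend and 94 to 173 without 1 array, against 258. The median of the resident macrophage genes was 0.021 to 0.51 without 1 array, that of the neutrophil genes -0.42 to 0.28 and that of the lymphocyte genes 0.15 to 0.35 (lowest without control 1). The lymphocyte median was also 0.088 without the filter, 0.024 with a filter at the 60th percentile, 0.11 after scaling on the hybridisation controls, -0.14 in the mean over probe sets and -0.23 without probe sets that can match several transcripts, which follows the change of Cd8a probe set. Of the 26 markers 14 kept their sign throughout. The other signs turned as follows, none with a call: Timd4 0.036 after quantile normalization; Cd68 0.033, Adgre1 0.047, Timd4 0.057, Ptprc 0.037, Lyz2 0.053 after median centring; Timd4 0.025 after cyclic loess; Csf1r -0.059, C1qb -0.040, Fcer1g -0.032 after scaling on the hybridisation controls; Cd8a -0.14 in the mean over its probe sets; Cd8a -0.56 without probe sets that can match several transcripts. Without 1 array the log2 differences of the genes that turned ranged as follows: Adgre1 -0.23 to 0.10, Timd4 -0.19 to 0.17, S100a9 -0.93 to 0.28, Elane -0.98 to 0.14, Ppbp -0.70 to 0.11, Cd68 -0.20 to 0.088, Ptprc -0.17 to 0.039, Lyz2 -0.26 to 0.14, Zbtb46 -0.45 to 0.086, Csf1r -0.028 to 0.34, C1qa -0.0071 to 0.54, C1qb -0.070 to 0.24, Itgax -0.31 to 0.099, Fcer1g -0.032 to 0.26. The causes of these turns were not tested. No paired analysis was possible because the groups share only the replicate number 3.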
